A study of Mus musculus with 5 samples.

Results

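Sertoli cell hormones and regulators are described here across 2 RNA libraries and 2 ChIP libraries of mouse testis. The symbols searched were Sox9, Wt1, Amh, Fshr, Inha, Inhbb, Dhh, Kitl, Rhox5 and Rhox8, and every transcript row of the expression table with one of these names was taken. Of the 10 symbols 9 had a row, with 15 transcript rows among 55350, and Rhox5 was not analysed here. One RNA library came from wild-type testis and the other from testis of Taf7l-/Y males, which lack the X-linked TFIID subunit paralogue TAF7L. Each pooled equal amounts of RNA from 6 males of 3 months of age, and the TAF7L and RNA polymerase II (Pol II) ChIP libraries are labelled wild type, also at 3 months. The labels used here give neither the strain nor the structure of the knockout allele. Each condition is 1 library, so differences are given by size, with no test across samples. The targeted gene Taf7l had signals of 13.2 and 2.04 in the wild-type and knockout library, with a log2 change of -2.22.

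Sertoli cells are the somatic cells of the seminiferous tubule that enclose and feed the germ cells. Their identity depends on the transcription factors SOX9 and WT1. They answer to follicle-stimulating hormone through the receptor FSHR and secrete inhibin, which lowers pituitary release of that hormone. They also send anti-Müllerian hormone (AMH), desert hedgehog (DHH) and KIT ligand to neighbouring cells. AMH is high in fetal and immature Sertoli cells and low after puberty. Rhox8 is a homeobox gene of the X-linked Rhox cluster that is expressed in Sertoli cells.

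RefSeq start sites (GRCm38.p6) were used for 4 of the 9 genes, namely Inhbb, Dhh, Kitl and Fshr. The start listed for Inha lies 532 bases inside the annotated gene, so its window was not used. Of the starts used, that of Kitl lies 206 bases inside its annotated gene and that of Dhh 22 bases. Those of Fshr and Inhbb lie at the gene's edge. The windows of Kitl, Dhh and Fshr are shown because they span the range of Pol II promoter scores described further on, from the highest of the genes to none. Each runs from 250 bases before to 50 bases after the start, 5′ to 3′ on the gene's strand, with CG dinucleotides in capitals.
Kitl, chr10:100015571-100015870, plus strand: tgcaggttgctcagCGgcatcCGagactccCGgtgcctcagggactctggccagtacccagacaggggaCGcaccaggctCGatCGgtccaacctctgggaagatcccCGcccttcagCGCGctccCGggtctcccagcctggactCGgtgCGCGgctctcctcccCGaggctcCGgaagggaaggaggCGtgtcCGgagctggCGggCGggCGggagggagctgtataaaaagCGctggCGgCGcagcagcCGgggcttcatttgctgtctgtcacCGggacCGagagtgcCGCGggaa
Dhh, chr15:98898491-98898790, minus strand: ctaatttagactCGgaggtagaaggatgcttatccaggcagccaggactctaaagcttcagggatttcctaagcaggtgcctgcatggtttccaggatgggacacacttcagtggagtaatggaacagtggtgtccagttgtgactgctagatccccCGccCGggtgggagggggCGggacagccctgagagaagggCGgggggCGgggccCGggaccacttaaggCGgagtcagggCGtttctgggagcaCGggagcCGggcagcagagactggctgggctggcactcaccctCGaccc
Fshr, chr17:89200626-89200925, minus strand: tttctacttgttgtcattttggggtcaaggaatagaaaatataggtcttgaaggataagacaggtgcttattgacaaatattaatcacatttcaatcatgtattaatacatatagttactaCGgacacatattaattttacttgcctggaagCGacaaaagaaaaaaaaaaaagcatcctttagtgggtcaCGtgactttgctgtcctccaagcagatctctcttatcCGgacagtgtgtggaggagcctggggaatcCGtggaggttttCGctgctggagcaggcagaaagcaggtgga
The Kitl window holds 28 CG dinucleotides, Inhbb 23, Dhh 12 and Fshr 6, against a median of 7 over the 32851 windows of the table, which can also include starts inside a gene. Kitl has the letters TATAAA, the TATA box, from 25 bases before its start, and 13.6% of all windows hold them on one strand or the other. The Fshr window has CACGTG, an E-box, from 61 bases before its start, which 7.15% of windows hold. This motif was added after the letters were seen. AGAACA was found in Inhbb (19% of all windows). AAGGTCA (4.72%), TGATAA (9.05%), AGATAA (11.2%), AACAAT (10.7%) and TGACG (20.8%) were found in none of the 4 windows, searched on both strands.

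All 9 genes had a higher signal in the knockout library than in the wild-type library, as did 72.4% of all genes tested. The knockout signal was 1.65 to 4.87 times the wild-type signal, with a median of 2.12 times. Amh, Inha, Fshr, Kitl and Dhh were at least 2-fold higher on the log2 scale with 1 added to each signal, which understates the change of low genes. Sox9, Wt1, Inhbb and Rhox8 stayed within 2-fold on that scale, and no gene was 2-fold lower. The 9 genes all had a mean signal over both libraries of 1 or more, the minimum set for comparison. Of the 12414 named genes above it, 7.37% passed 2-fold upward and 7.33% downward, against 5 and 0 of these 9. Upward calls made up 7.48% of the genes whose wild-type signal lay in the range of the 9. The median change of the 9 was 1.01 and that of all genes 0.40.

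Rescaling changes how many of these genes pass 2-fold. When the median change of all genes was set to 0, Amh and Inha remained 2-fold higher, 2 of 9, against 1.12% of all genes, and 13% of all genes were then 2-fold lower. All 9 still lay above the median of all genes, which 50% of genes do by construction. Rhox8, the lowest of the 9 by these rows, had a larger change than 74.6% of genes, and Amh, the highest, a larger change than 99.4%. In tissue RNA, a larger share of Sertoli cells and more RNA per Sertoli cell cannot be told apart.

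**Figure D1:**
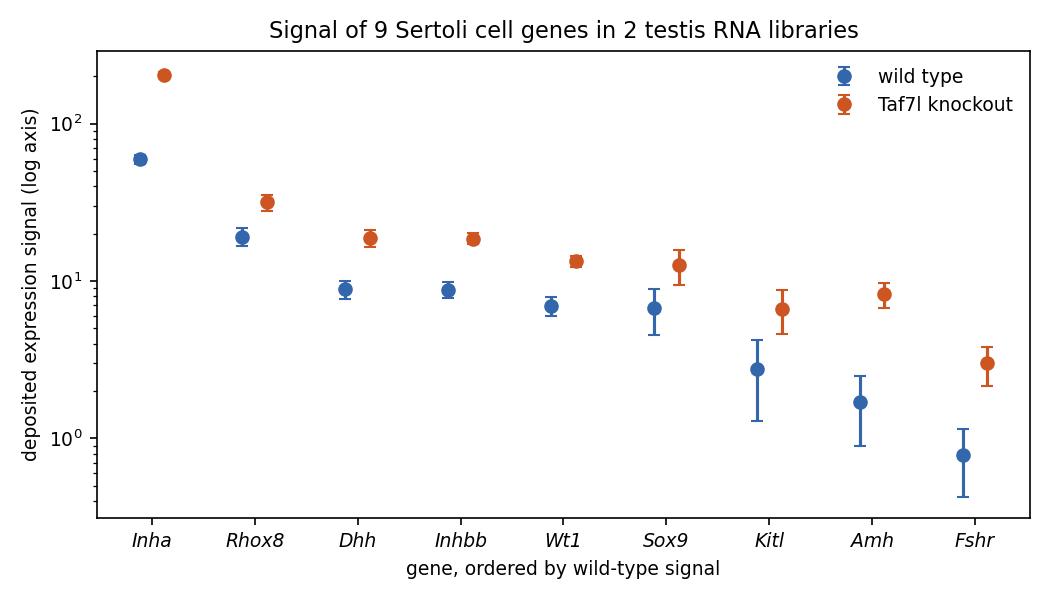
Deposited expression signal (log axis) of the 9 genes in the wild-type (blue) and Taf7l knockout (orange) library, in order of wild-type signal; bars are the deposited standard deviation within each library, not a replicate spread. The knockout point lies above the wild-type point for every gene, from Inha at 59.6 and 204 to Fshr at 0.79 and 2.99.

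Of the hormone genes, Inha was the most abundant of the 9 in both libraries. Inha (chromosome 1, 75503651 to 75506929, mm9) encodes the inhibin alpha chain, which makes a dimer inhibin rather than activin. Its signal was 59.6 in wild-type testis and 204 in knockout testis, with deposited standard deviations of 4.12 and 9.32. Its log2 change was 1.76, and 1.36 relative to the median of all genes. Its wild-type signal was above that of 88.6% of genes and its knockout signal above that of 97.1%.

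Inhbb (chromosome 1, 121312041 to 121318825, mm9), the beta B chain of inhibin B and activin B, moved less than Inha. Its signal was 8.80 ± 1.02 in wild-type testis and 18.6 ± 1.502 in knockout testis (deposited SD within 1 library). The ratio of the signals was 2.11, and the log2 change with 1 added was 0.9976, just short of 2-fold. The Inha signal was 6.77 times that of Inhbb in wild-type testis and 11.0 times in knockout testis. The beta A gene Inhba was near the bottom of the scale in both libraries, with 0.08 and 0.31.

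Amh (chromosome 10, 80267992 to 80270393, mm9) showed the largest change of the 9 genes. Its signal was 1.69 ± 0.80 in wild-type testis, a level that 16.2% of genes lie below, and 8.24 ± 1.51 in knockout testis. The log2 change was 1.78, and the knockout signal was 4.87 times the wild-type signal. Sf3a2, a splicing factor gene that ends 325 bp from Amh, had 29.9 and 41.9, and Jsrp1, 852 bp away on the other side, had 0.96 and 1.64. Strand was not stated, and the part of neighbouring transcripts in the Amh signal was not tested.

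The receptor gene Fshr had the lowest signal of the 9 in both libraries. Fshr (chromosome 17, 89384291 to 89600015, mm9) had 0.79 ± 0.36 with Taf7l and 2.99 ± 0.84 without it, a log2 change of 1.16. The ratio of the signals was 3.79. Its wild-type value alone is below the minimum of 1, which its mean passed through the knockout value.

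The ligand genes Dhh and Kitl were close to the 2-fold line. Dhh (chromosome 15, 98723457 to 98728971, mm9), the hedgehog ligand that Leydig and peritubular cells receive, had 8.85 ± 1.16 and 18.8 ± 2.26, a log2 change of 1.01. Dhh and Inhbb had nearly equal levels in both libraries, and their bands of 1 deposited SD overlapped.

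Kitl (chromosome 10, 99478457 to 99563046 over its longest rows, mm9), the ligand of the KIT receptor on spermatogonia, depends on the transcript row. The row with the highest signal, which ends at 99539539, had 2.76 ± 1.47 with Taf7l and 6.69 ± 2.06 without it, a log2 change of 1.03. The other 3 Kitl rows had 0.64 to 0.81 in wild-type testis and 1.34 to 1.63 in knockout testis, with log2 changes of 0.51 to 0.54. Without the added 1, all 4 rows had ratios between 2.02 and 2.42. A further transcript filed under the older name Kitlg, left out by the rule, had 0.622 and 1.31.

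The 3 transcription factor genes had changes of 0.70 to 0.85, the smallest of the 9 when the row with the highest signal stands for each gene. With the mean of a gene's rows Kitl, at 0.76, lay below Sox9 and Wt1, and with its longest row, at 0.52, below all 3. Sox9 (chromosome 11, 112643523 to 112649071, mm9), the master regulator of Sertoli fate, had 4.49 ± 0.65 and 8.56 ± 1.26 in its full row, a log2 change of 0.80. A short row inside the gene stood for it by its higher signal, with 6.74 ± 2.19 and 12.6 ± 3.22 and a log2 change of 0.82. Wt1 (chromosome 2, 104966685 to 105013771, mm9), a zinc finger factor that maintains Sertoli identity, had 6.97 ± 0.95 and 13.4 ± 1.05 in its higher row, a log2 change of 0.85. The short Sox9 row stood at 0.967 of the higher Wt1 row in wild-type testis and 0.945 in knockout testis, a like ratio. Their near-equal levels depend on the row. In the longest rows Sox9 had 4.49 and 8.56, and Wt1 had 5.55 and 10.9. Rhox8 (chromosome X, 35227952 to 35232121, mm9) had 19.1 ± 2.54 and 31.7 ± 3.69, a log2 change of 0.70.

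The bands of 1 deposited SD around the wild-type and knockout signals did not overlap for any of the 9 genes. This says little about the genes, since 49.5% of all genes tested had a knockout band above the wild-type band. The gap was narrowest for Kitl, from 4.24 to 4.63, and for Sox9, from 8.93 to 9.40. The order of the 9 levels was the same in both libraries except that Amh and Kitl changed places, and in neither library did the bands of these 2 genes separate. Inha and Rhox8 each stood apart from the gene below them in both libraries.

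Reads behind each value differed widely. Read as a spread over 64 and 60 equal parts of the libraries, as their largest ratios of SD to mean (8.00 and 7.75) would give, the deposited SDs correspond to about 13399 wild-type reads for Inha. The same reading gives 302 for Fshr, 287 for Amh and 225 for the highest Kitl row. Counting error of the log2 change would then be 0.015 for Inha, 0.062 for Amh, 0.054 for Fshr and 0.086 for Kitl. This reading was not tested and has exceptions: the full Sox9 row would go from 3019 to 2775 reads while its signal was 4.49 and 8.56. These errors cover counting only and not the spread between animals.

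**Figure D2:**
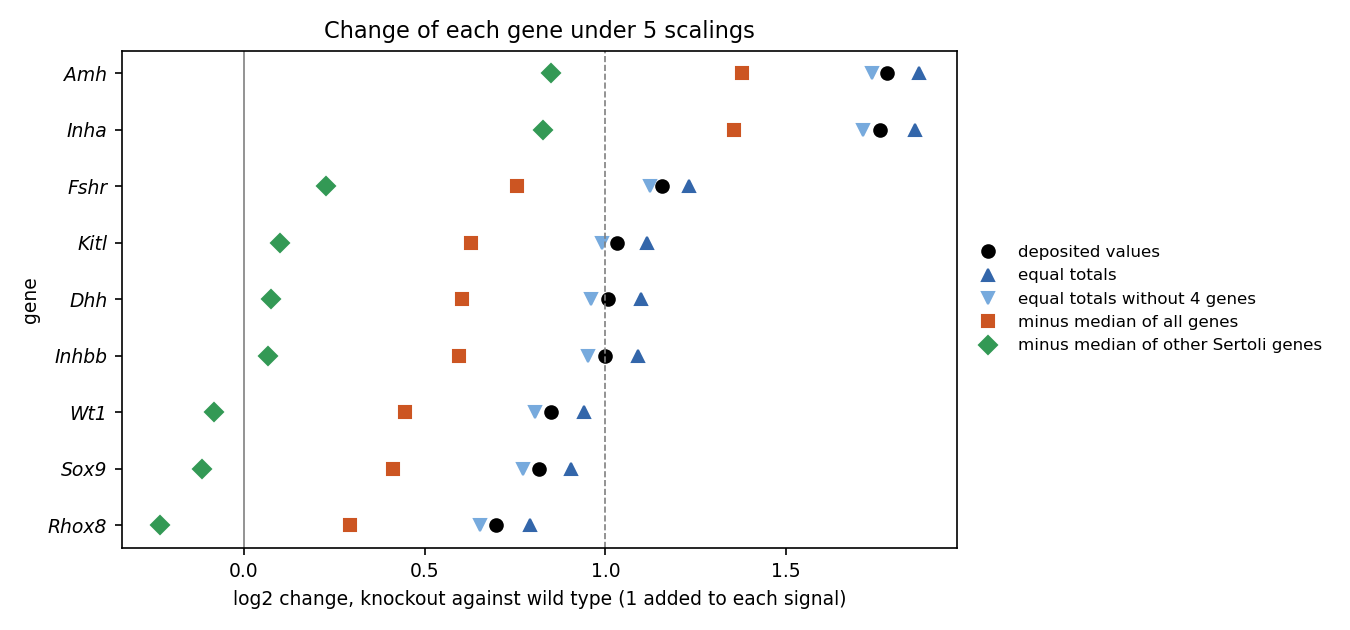
log2 change (1 added to each signal) of each of the 9 genes, with the deposited values (black), equal library totals (dark blue), equal totals without Prm1, Prm2, Tnp1 and Tnp2 (light blue), minus the median of all genes (orange) and minus the median of other Sertoli cell genes (green). Amh and Inha pass the dashed 2-fold line under every scaling but the last, at 0.85 and 0.83, where Rhox8, Sox9 and Wt1 fall below 0.

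A list of 29 other Sertoli cell genes was used as a yardstick, and 27 had a mean of at least 1. Of these 27, 11 passed 2-fold upward and 0 downward, with a median change of 0.93, against 7.37% of all genes upward. Relative to that median Amh lay at 0.85 and Inha at 0.83. The other 7 genes lay closer to it, with Fshr at 0.23, Kitl at 0.10, Dhh at 0.08, Inhbb at 0.07, Wt1 at -0.08, Sox9 at -0.11 and Rhox8 at -0.23. Each of these 7 distances is smaller than the gene's own deposited SD carried to the log2 scale, which ran from 0.19 for Inhbb to 0.68 for Kitl. That SD is a spread within 1 library, so it cannot say whether these genes differ from the yardstick. Counting errors by the untested reading above would be smaller than the distances, from 0.024 for Inhbb to 0.086 for Kitl. The spread between animals is not known. Of other transcription factors in the list, Gata4, Sox8 and Nr5a1 had changes of 0.75, 0.78 and 0.77, and Gata1 and Dmrt1 had 1.29 and 1.08.

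Within the yardstick list Clu, a secreted glycoprotein gene, was the most abundant, with 564 and 1076. The dopamine receptor gene Drd4 had the largest change with 1 added, from 8.29 to 32.4 (1.85). The keratin gene Krt18 followed at 1.84 and had the larger ratio, from 0.19 to 3.26. Krt18 reached the minimum mean of 1 only through its knockout value, so its upward call, counted in the 11, followed from that minimum. The tight junction gene Tjp1 had the smallest change of the measured genes, with 4.11 and 5.87. The AMH receptor gene Amhr2, which Leydig cells also express, had 121 and 225, a change of 0.89.

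Genes that receive or carry the AMH and inhibin signals had smaller changes than Amh and Inha. In the AMH, activin and inhibin list 2 of 12 measured genes passed 2-fold upward and 0 downward (7.37% and 7.33% of all genes). The median of the list was 0.69. Bmpr1a, a type I receptor used by AMH, rose from 3.08 to 7.78, and Smad2, an activin signal carrier, rose from 3.26 to 7.58. Acvr2a, an activin receptor gene, had 1.73 and 1.88, the smallest change.

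In the Hedgehog list 0 of 7 measured genes passed 2-fold in either direction on the scale with 1 added, with a median of 0.59. These genes are low, and with 0.1 added 4 passed upward and 1 downward (16.4% and 9.15% of all genes), with a median of 1.01. Ptch1, the DHH receptor and a target of the pathway, had 1.61 and 3.38. Smo, which relays the signal, had 1.15 and 3.15, the largest rise. Sufu, an inhibitor of the pathway that was also its most abundant gene, had 28.3 and 14.0, a change of -0.97. The target gene Gli1 did not reach the mean of 1, with 0.46 and 0.75. KIT, the receptor for KIT ligand, had signals of 1.98 and 4.08 for its gene, a change of 0.77.

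Among regulators of sex determination 2 of 10 measured genes passed 2-fold upward and 0 downward (7.37% and 7.33% of all genes). The median of the list was 0.71. Nr0b1 (Dax1), a nuclear receptor gene and the most abundant of the list, rose from 10.7 to 23.9. Lhx2 had 3.28 and 1.93, the lowest change at -0.55. In the short list of KIT and other receptors, the luteinising hormone receptor gene Lhcgr rose from 0.71 to 3.50 and the G protein gene Gnas from 30.0 to 67.0, and Prlr had 1.68 and 3.18. The mean of Lhcgr passed the minimum of 1 only through its knockout value.

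Rhox8 stood out by level in its own cluster. Of 31 genes named Rhox that had a row, 11 reached the mean of 1, and Rhox8 had the highest signal of them. Rhox13 rose from 3.05 to 8.21, and Rhox11 fell from 3.97 to 1.32. The median of the 11 was -0.29, below the 0.40 of all genes. Several of them are near-identical copies of Rhox2 or Rhox3, whose reads the counting could have split, so their values are uncertain.

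**Figure D3:**
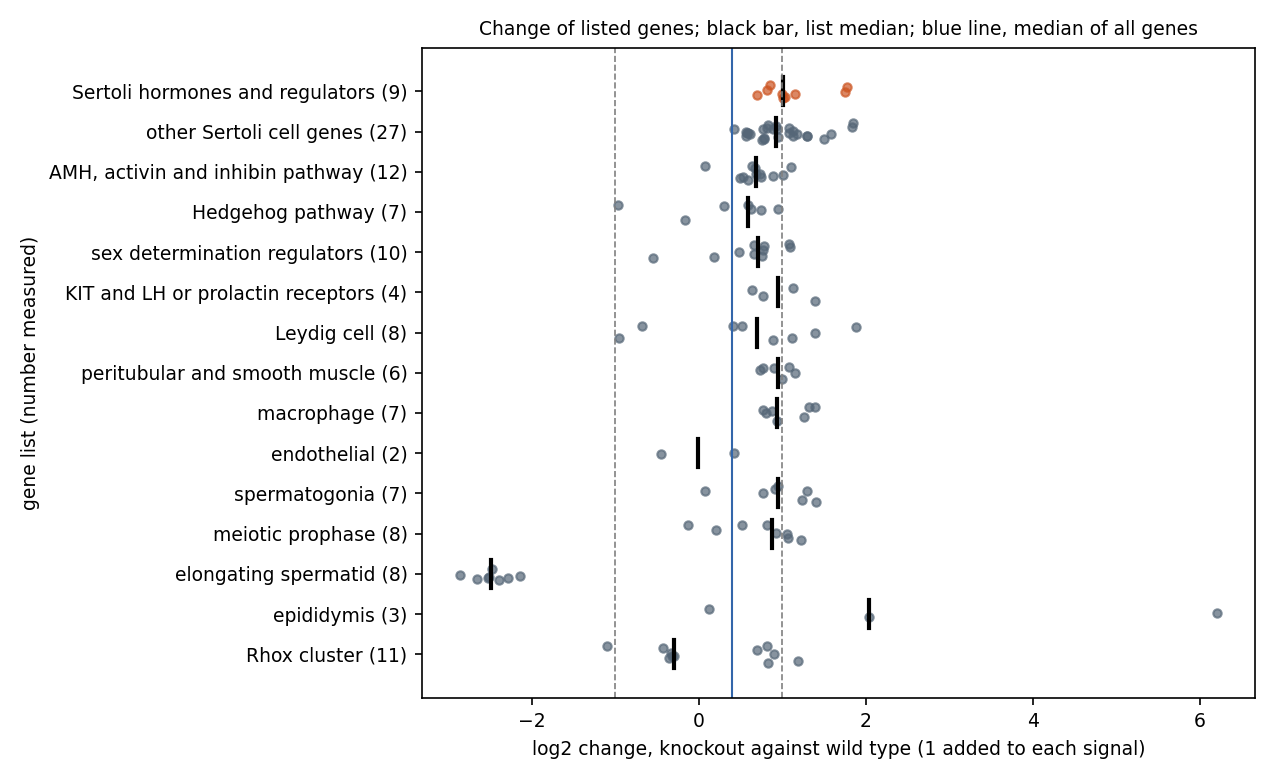
log2 change (1 added to each signal) of measured genes in each list, knockout against wild type; the orange points are the 9 genes, black bars are list medians, the blue line is the median of all genes (0.40) and dashed lines mark 2-fold. The 9 genes lie between 0.70 and 1.78, the other Sertoli cell genes between 0.43 and 1.85 and the elongating spermatid genes between -2.86 and -2.14.

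Markers of other cells moved in the same libraries, in which 7.37% of all genes passed 2-fold upward and 7.33% downward. All 8 elongating spermatid markers were 2-fold lower, with a summed signal of 67071 in wild-type testis and 12013 in knockout testis. Peritubular markers passed 2-fold upward in 3 of 6, with sums of 100.5 and 204, and macrophage markers in 3 of 7 measured, with sums of 47.9 and 112. Spermatogonial markers did so in 3 of 7 measured (sums 340.3 and 424) and meiotic prophase markers in 3 of 8 (279 and 324), with median changes of 0.95 and 0.87. Without its most abundant gene Dmrtb1 the spermatogonial sum was 52.5 and 120.5, and without Syce1 the meiotic sum was 66.5 and 129. The summed signal of the 9 genes was 115 and 317 and that of the 29 other Sertoli cell genes 1605 and 3148. The part of these cells in the changes of the 9 genes was not tested.

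Leydig cells, which also express inhibin alpha, had no uniform change. Of 8 markers 3 passed 2-fold upward and 0 downward, against 7.37% and 7.33% of all genes. Higher in the knockout library were 6 markers (72.4% of all genes), and the median change of the 8 was 0.70. Their sums, 1938 and 1588, were mostly Insl3. Cyp11a1, the side-chain cleavage enzyme gene, rose from 40.0 to 151, whereas Insl3 had 1686 and 1052 and Star 23.5 and 11.7. Of 6 endothelial markers only Cdh5 and Vwf reached the mean of 1, and the sums were 7.02 and 7.41. These near-equal sums hide opposite moves, with 3.52 and 2.32 for Vwf and 2.13 and 3.20 for Cdh5. Pecam1, Kdr, Tek and Tie1, all below the minimum, were also higher in the knockout library. Epididymal markers summed to 1.60 and 81.0, of which Crisp1 made up 75.9 in the knockout library. Adam7, a protease family gene of the epididymis, had 0.001 and 3.13. Of the 8 epididymal markers 3 were measured, 2 of them past 2-fold upward, and Lcn5, Lcn8 and Lcn9 were at or below 0.06 in both libraries. The 2, Crisp1 and Adam7, reached the minimum mean of 1 only through the knockout library, so their upward calls followed from that minimum.

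TAF7L had no promoter score at any of the 9 genes in wild-type testis. Among all genes tested 55.1% had a TAF7L promoter score above 0. The share was 54.8% among the 10677 genes with a wild-type signal in the range of the 9, from 0.79 to 59.6. It was 29.8% among the 4568 genes with a Pol II promoter score in their range, from 49.4 to 333. Of the other Sertoli cell genes 2 of 27 had a TAF7L promoter score, Tjp1 with 64.1 and Ctsl with 38.1. The scores are the authors' own and come from 1 library each, the files do not define them, and the IgG library has no column.

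Pol II had a promoter score at 7 of the 9 genes, against 86.7% of all genes tested. The scores were 333 at Kitl, 231 at Sox9, 149 at Wt1, 102 at Dhh, 101 at Inhbb, 59.9 at Inha and 49.4 at Rhox8. All 7 lay below 374, the median of genes with a score. Inha, the most abundant of the 9 in RNA, had a Pol II promoter score above that of only 2.47% of the scored genes, and Kitl, the highest, above 43.7%. In the proximal class Inha had a higher Pol II score, 246. The part of Sertoli cells in these testis scores was not tested. Fshr had 0 in all 3 position classes for both TAF7L and Pol II.

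Scores outside the promoter class were in part shared with neighbouring genes. TAF7L had a proximal score at 2 of the 9 genes (33.8% of all genes) and a distal score at 4 (53.6%). Pol II had a proximal score at 5 (63.3%) and a distal score at 5 (77.1%). The proximal Pol II scores of Sox9 (231) and Wt1 (149) equal the promoter score of another row of the same gene. They are therefore not separate from the promoter scores. Amh had no promoter score for Pol II, but proximal scores of 89.5 for TAF7L and 820 for Pol II, and both equal the promoter scores of Sf3a2, its neighbour. Its distal TAF7L score of 135, the highest TAF7L score of the 9 genes, equalled no TAF7L promoter score found within 100 kb. The distal scores of Dhh, 110 for TAF7L and 589 for Pol II, equal the promoter scores of Lmbr1l, 5380 bp away, which had RNA signals of 96.0 and 60.0. The distal Pol II score of Inha, 369, equals the promoter score of Stk11ip.

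Adjacent transcripts shared 2 of the Pol II promoter scores themselves. The score of 149 at Wt1 is also that of AI314831, which lies 18 bp from Wt1 and had RNA signals of 0.691 and 0.781. The score of 231 at Sox9 is also that of BC006965, which lies 233 bp away and had 0.071 and 0.042. Sox9 also had a TAF7L score of 54.5, in the proximal class of its full row and in the distal class of its short rows. Inhbb had a distal TAF7L score of 29.9, and Wt1, Inha, Kitl and Rhox8 had no TAF7L score in any class. In all, 4 of 9 had a TAF7L score in some class, against 77.8% of all genes.

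**Figure D4:**
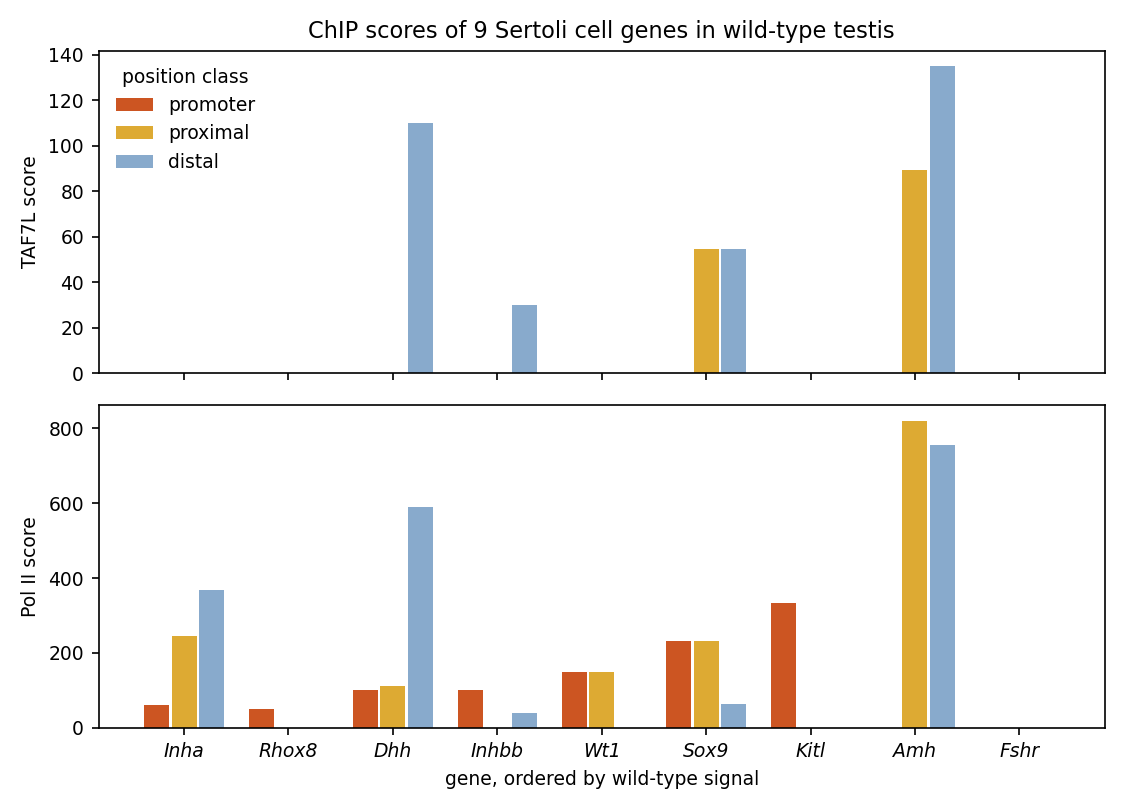
Highest TAF7L score (top) and Pol II score (bottom) over the transcript rows of each of the 9 genes in promoter, proximal and distal classes in wild-type testis, in order of wild-type RNA signal. No TAF7L promoter bar is present, and Pol II promoter bars reach 333 at Kitl and are absent at Amh and Fshr.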

How the data were processed

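The authors deposited 2 tables for the whole series. Per the file headers, the expression table gives a mean signal and its standard deviation per transcript and genotype, the log2 of their quotient and the quotient of deviation and mean; the unit and what the deviation was taken over are not stated. The log2 ratio and the deviation-to-mean ratio the authors deposited were not used. The deposited binding table gives a score per transcript in 3 position classes. The submitters' processing notes name Bowtie, TopHat and Cufflinks and the build mm9; the labels give 100 to 200 M reads per RNA library (M, 1e+06), and no ChIP depth is given.

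Names were matched to RefSeq symbols and synonyms (GRCm38.p6) for 46938 of 55350 rows; 8412 were left out. The row with the highest mean stood for a gene. Change was log2((knockout + 1)/(wild type + 1)); genes whose mean reached 1 were compared and called at 2-fold; with 1 library per group no test was made. A gene had a ChIP score when any of its rows did. Levels of different genes were compared as if the signal were per length, which is not stated. In rows of 300 to 2000 bp, reads implied per unit of signal rose with span (Spearman rho 0.47, n = 1525, across rows). Those reads rest on the untested reading of the SDs, so the unit is not settled by this. Named genes were the members, each list's most abundant gene and largest rise and fall, and neighbours within 5 kb or, within 100 kb, with an equal score; some genes of the marker lists that this rule takes are not printed, and other listed genes are examples chosen after their values were seen. The members and lists were chosen with earlier results of these data known. Python 3.11.15, pandas 2.3.3, numpy 2.4.6 and matplotlib 3.10.9 were used.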

Additional observations from a re-analysis of the deposited data

How the results depend on the processing

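All 9 genes kept a positive change under every alternative except relative to the other Sertoli cell genes, where Sox9, Wt1 and Rhox8 turned negative (93 of 96 recomputed changes were above 0). The count of 5 of 9 genes past 2-fold upward (7.37% of all genes) became 2 after centring on the median of all genes (1.12%). It became 3 with equal totals without Prm1, Prm2, Tnp1 and Tnp2 (5.82%) and 0 relative to the other Sertoli cell genes (0.507%). At a fold of 1.5 it was 9, against 35.5% of all genes. At a mean of at least 5 it was 2 of the 6 genes left, against 9.01% of all genes at that mean. Their median of 1.01 became 0.60 after centring and 0.076 relative to the other Sertoli cell genes. For the other Sertoli cell genes, 11 past 2-fold became 4 after centring, 0 relative to their own median and 23 at a fold of 1.5, and their median of 0.93 became 0.53 and, by construction, 0. Pol II promoter scores at or above the lower quartile of all scores (209) were held by 2 of the 9 genes in place of 7, against 65.1% of all genes.

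Over all genes, 915 higher and 910 lower became 139 and 1608 after centring, 63 and 3129 relative to the other Sertoli cell genes, 2035 and 1136 with a pseudocount of 0.1, 2243 and 1176 with 0.001, 1393 and 807 with equal totals and 4409 and 1634 at a fold of 1.5. With the longest row for each gene, an alternative chosen after seeing the data, 4 of the 9 passed 2-fold upward, against 6.75% of all genes. Kitl did not, at 0.52. No paired analysis was possible because each group has 1 library. With a pseudocount of 0.1, upward counts also moved to 4 of 7 Hedgehog, 5 of 7 macrophage, 5 of 7 spermatogonial and 4 of 11 Rhox genes, against 16.4% of all genes. After centring, upward counts became 0 of 12 in the AMH, activin and inhibin list and 0 of 10 among sex determination regulators. Peritubular, macrophage and meiotic prophase markers then had 0 of 6, 0 of 7 and 0 of 8. Spermatogonial, Leydig and epididymal markers kept 1 of 7, 1 of 8 and 2 of 3, against 1.12% of all genes. Fshr, Amh and Kitl are the least precise of the 9 by their deposited SDs in the wild type.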

Other observations

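Downstream of Sox9, 2 transcripts named by cDNA clones moved against it. AK005912, 35207 bp from Sox9, had 79.7 with Taf7l and 22.2 without it, a log2 change of -1.80. AK015526, 37396 bp away, had 19.7 and 9.31, a change of -1.004. Their Pol II promoter score of 63.6 equals the distal Pol II score of Sox9, and neither had a TAF7L promoter score. They were singled out after their values were seen, and Sox9 itself had a change of 0.82.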
